A study of Homo sapiens with 24 samples.

Results

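ETV1, ETV4 and ETV5 are the 3 genes of the PEA3 group of ETS transcription factors. They were followed on 24 Affymetrix Human Gene 2.1 ST arrays, as the probe sets whose annotation gives a single symbol among these names. That rule finds 46 of the 352859 probe sets on the array, 20 for ETV1, 14 for ETV4 and 12 for ETV5, and 3 of 25029 genes. The arrays come from HEK293, an embryonic kidney line, and BJ-hTERT, a foreskin fibroblast line immortalised with telomerase. Both lines carry an HA-tagged YWHAE-NUTM2 fusion gene that doxycycline switches on, and the mock cells, which received the water vehicle, carry it too. The 8 groups are mock and doxycycline cells of HEK293 and of BJ-hTERT at 24 and 72 h, with n = 3 arrays each. YWHAE-NUTM2 fusions occur in clear cell sarcoma of the kidney, the tumour the series title abbreviates as CCSK. The labels do not say whether a line is a clone or a pool, give only a stock concentration of doxycycline and include no doxycycline-treated cells without the fusion gene, so effects of the drug and of the fusion cannot be told apart. The labels do not say that replicates were separate cultures either, so the p-values may reflect technical spread alone.

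PEA3 factors bind DNA through an ETS domain and activate transcription. In many tissues their own transcription rises when fibroblast growth factor or other receptor tyrosine kinases signal through RAS and the kinase ERK, and falls when that signal stops, so they are widely read as an output of the pathway. The repressor CIC holds the PEA3 genes down until ERK signalling relieves it, and the ubiquitin ligase COP1 marks the proteins for degradation. In the mouse kidney Etv4 and Etv5 act downstream of the receptor Ret in the branching ureteric bud. Gene fusions involving PEA3 factors occur in prostate cancer and Ewing sarcoma.

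The deposited values are log2 intensities, and a gene's level is the mean of its probe sets. All 3 members passed the filter on dim genes, a group mean of at least log2 2.83 in some group, which kept 17329 genes. A difference is called when its limma p-value, adjusted by Benjamini-Hochberg over those 17329 genes, is under 0.05. Values after ± are standard errors of the limma difference unless SD is written. Across genes, r was 0.974 to 0.980 between replicate arrays. It was 0.956 to 0.977 between groups of the same line and 0.775 to 0.800 between HEK293 and BJ-hTERT. As a check on the induction, of 32 tested probe sets naming NUTM2 genes 7 and 11 rose with doxycycline in HEK293 at 24 and 72 h, 14 rose in BJ-hTERT at each time and 0 fell. Of all probe sets tested, 0.0417% and 0.0585% rose in HEK293 at 24 and 72 h, and 0.329% and 0.25% in BJ-hTERT. The shares that fell were 0.00931% and 0.0156% in HEK293 and 0.821% and 0.437% in BJ-hTERT. The 8 fibroblast markers averaged log2 7.98 to 8.76 on BJ-hTERT arrays and 3.23 to 3.52 on HEK293 arrays. The 5 HEK293 markers averaged 6.11 to 6.33 on mock HEK293 arrays, 6.49 to 6.76 on doxycycline HEK293 arrays and 2.61 to 2.98 on BJ-hTERT arrays. Their part in the HEK293 results was not tested.

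A RefSeq table of promoter windows for build GRCh38.p14 matched 1 of the 3 members, ETV1, with 6 windows of 250 bases before and 50 after a start site. The windows of the outermost and of start 3 are shown because the gene has several starts and one of them holds a match to the octamer that CIC binds. Capitals mark matches to that octamer (TGAATGAA, TGAATGGA, TCAATGAA or TCAATGGA), to the longer ETS site CCGGAA or to the AP-1 site TGANTCA, searched on both strands.
ETV1 outermost start, chr7:13991376-13991675, minus strand: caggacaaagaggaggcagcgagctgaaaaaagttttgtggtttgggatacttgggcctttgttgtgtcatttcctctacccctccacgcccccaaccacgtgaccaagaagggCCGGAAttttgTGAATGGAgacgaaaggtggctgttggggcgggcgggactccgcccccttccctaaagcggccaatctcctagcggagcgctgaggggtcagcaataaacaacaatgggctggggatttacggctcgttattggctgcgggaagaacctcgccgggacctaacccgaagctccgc
ETV1 start 3, chr7:13990657-13990956, minus strand: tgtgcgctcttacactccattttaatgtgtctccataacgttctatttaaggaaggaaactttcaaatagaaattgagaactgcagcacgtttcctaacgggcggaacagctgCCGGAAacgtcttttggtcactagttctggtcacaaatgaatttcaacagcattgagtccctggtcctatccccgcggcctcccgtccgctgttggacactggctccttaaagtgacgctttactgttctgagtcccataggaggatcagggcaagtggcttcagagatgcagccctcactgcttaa
The outermost window holds 1 CIC octamer, TGAATGGA, starting at position -125 from the start site, and 1 longer ETS site at -136. The octamer occurs in 3.77% of the 35116 windows of this length in the table, the longer ETS site in 17.2% and the AP-1 site in 7.71%. These are shares of single windows, whereas 6 windows of ETV1 were searched, so a match in any of them is likelier. Windows 3 and 4, which overlap by all but a few bases, hold 1 longer ETS site each, none of the 6 holds an AP-1 match, and the other windows hold none of the 3 motifs. A match is a description of the letters and not evidence of binding.

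**Figure D1:**
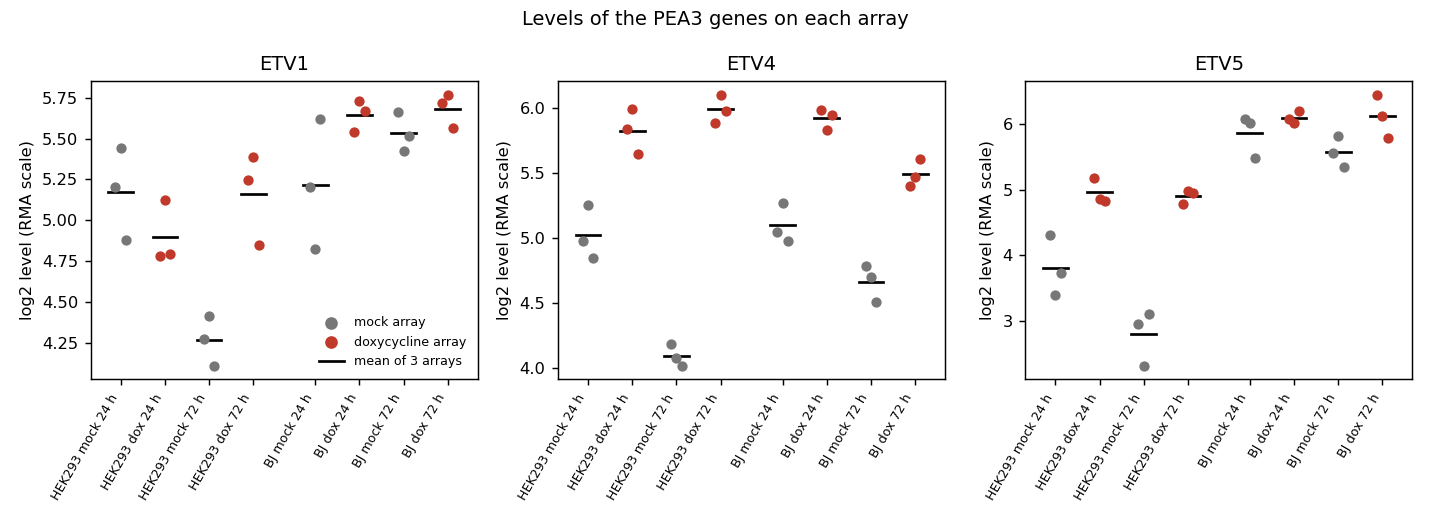
Log2 level of ETV1, ETV4 and ETV5 on each of the 24 arrays (vertical axis, RMA scale, separate for each gene) by group (horizontal axis, BJ for BJ-hTERT). Each dot is an array, grey for mock and red for doxycycline, and the line is the mean of 3 arrays. The HEK293 mock arrays at 72 h are the lowest group for all 3 genes, and ETV4 is higher in every doxycycline group than in its mock group.

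ETV4, also known as PEA3 or E1AF, rose under doxycycline in all 4 comparisons, in HEK293 and in BJ-hTERT. In HEK293 at 24 h its log2 levels were 4.98, 5.25 and 4.84 on the mock arrays and 5.84, 5.99 and 5.65 on the doxycycline arrays. At 72 h they were 4.19, 4.08 and 4.01 on the mock arrays and 5.89, 6.11 and 5.98 on the doxycycline arrays. The groups did not overlap at either time, and the doxycycline arrays stood near the same level at both times while the mock arrays stood lower at 72 h. ETV4 rose by 0.80 ± 0.13 log2 at 24 h (1.74-fold, n = 3, limma adjusted p = 0.0021) and by 1.90 ± 0.13 at 72 h (3.73-fold, limma adjusted p = 2.4e-08). The 24 h call was lost with the median of probe sets (0.91, adjusted p = 0.18) and with the groups compared only (0.80, adjusted p = 0.21). In bulk RNA a change in the share of expressing cells and a change of RNA per cell cannot be told apart. By size the 72 h rise ranked 16 among the genes tested and by p-value it ranked 2.

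In BJ-hTERT at 24 h the ETV4 levels were 5.04, 5.27 and 4.98 on the mock arrays and 5.98, 5.83 and 5.95 on the doxycycline arrays. At 72 h they were 4.79, 4.70 and 4.51 on the mock arrays and 5.40, 5.47 and 5.61 on the doxycycline arrays. Again no doxycycline array overlapped a mock array, and here both groups stood lower at 72 h. ETV4 rose by 0.82 ± 0.13 log2 at 24 h (1.77-fold, n = 3, limma adjusted p = 0.00017) and by 0.83 ± 0.13 at 72 h (limma adjusted p = 0.00022).

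ETV5, also known as ERM, rose with doxycycline in HEK293 and did not pass the test in BJ-hTERT. In HEK293 at 24 h its log2 levels were 4.31, 3.39 and 3.72 on the mock arrays and 5.18, 4.86 and 4.83 on the doxycycline arrays. At 72 h they were 2.95, 2.31 and 3.11 on the mock arrays and 4.78, 4.98 and 4.95 on the doxycycline arrays. The groups did not overlap at either time, and the mock arrays were more scattered than the doxycycline arrays. ETV5 rose by 1.15 ± 0.23 log2 at 24 h (2.22-fold, n = 3, limma adjusted p = 0.021) and by 2.11 ± 0.23 at 72 h (4.33-fold, limma adjusted p = 1.4e-05). The size of the 72 h rise is uncertain, since the mock mean of 2.79 is under the filter value of 2.83. The 24 h call was lost without any of 5 of the 6 arrays compared. Its change was 0.94 without mock replicate 2, 1.11 without mock replicate 3, 1.04 without doxycycline replicate 1, 1.20 without doxycycline replicate 2 and 1.21 without doxycycline replicate 3, with adjusted p from 0.055 to 0.15.

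In BJ-hTERT at 24 h the ETV5 levels were 6.08, 6.03 and 5.48 on the mock arrays and 6.08, 6.01 and 6.21 on the doxycycline arrays. At 72 h they were 5.56, 5.82 and 5.34 on the mock arrays and 6.45, 6.12 and 5.79 on the doxycycline arrays. The groups overlapped at both times. The differences were 0.24 ± 0.23 log2 at 24 h (95% interval -0.25 to 0.73, limma adjusted p = 0.62) and 0.55 ± 0.23 at 72 h (0.06 to 1.03, limma adjusted p = 0.17).

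ETV1, also known as ER81, passed the test for doxycycline only in HEK293 at 72 h among the 4 comparisons. In HEK293 at 24 h its log2 levels were 5.21, 5.44 and 4.88 on the mock arrays and 4.78, 5.12 and 4.80 on the doxycycline arrays. At 72 h they were 4.27, 4.42 and 4.11 on the mock arrays and 5.24, 5.39 and 4.85 on the doxycycline arrays. The groups overlapped at 24 h and were apart at 72 h. The difference was -0.28 ± 0.18 log2 at 24 h (95% interval -0.66 to 0.11, n = 3, limma adjusted p = 0.73), and ETV1 rose by 0.89 ± 0.18 at 72 h (1.86-fold, limma adjusted p = 0.013). The 72 h call was lost without mock replicate 3 (0.82), doxycycline replicate 1 (0.85) or doxycycline replicate 2 (0.78), with adjusted p from 0.062 to 0.088.

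In BJ-hTERT the ETV1 levels at 24 h were 5.20, 4.83 and 5.62 on the mock arrays and 5.54, 5.73 and 5.67 on the doxycycline arrays. At 72 h they were 5.66, 5.43 and 5.52 on the mock arrays and 5.72, 5.77 and 5.56 on the doxycycline arrays. The mock arrays at 24 h span 0.8 log2 and overlap the doxycycline arrays, as do those at 72 h. The differences were 0.43 ± 0.18 log2 at 24 h (95% interval 0.05 to 0.81, limma adjusted p = 0.17) and 0.15 ± 0.18 at 72 h (-0.23 to 0.53, limma adjusted p = 0.72). Without mock replicate 3 the 24 h difference was 0.63 and was called, with limma adjusted p = 0.039.

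Read over the members, 2 of 3 rose in HEK293 at 24 h, where 0.473% of all genes were called and 0.456% rose, and 3 of 3 at 72 h, where 1.21% were called and 0.952% rose. In BJ-hTERT 1 of 3 rose at each time, where 8.85% and 8.62% of all genes were called and 4.47% and 4.03% rose. None of the 3 fell in any of these comparisons, where 0.0173% and 0.26% of all genes fell in HEK293 and 4.39% and 4.59% in BJ-hTERT. The arrays of the groups did not overlap for 14% of all genes in HEK293 at 24 h and 17.6% at 72 h, and for 25.8% and 25.1% in BJ-hTERT. The members, and the gene lists below, were chosen with earlier results of these data known. Counts set beside shares of all genes are therefore descriptions and not a test.

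**Figure D2:**
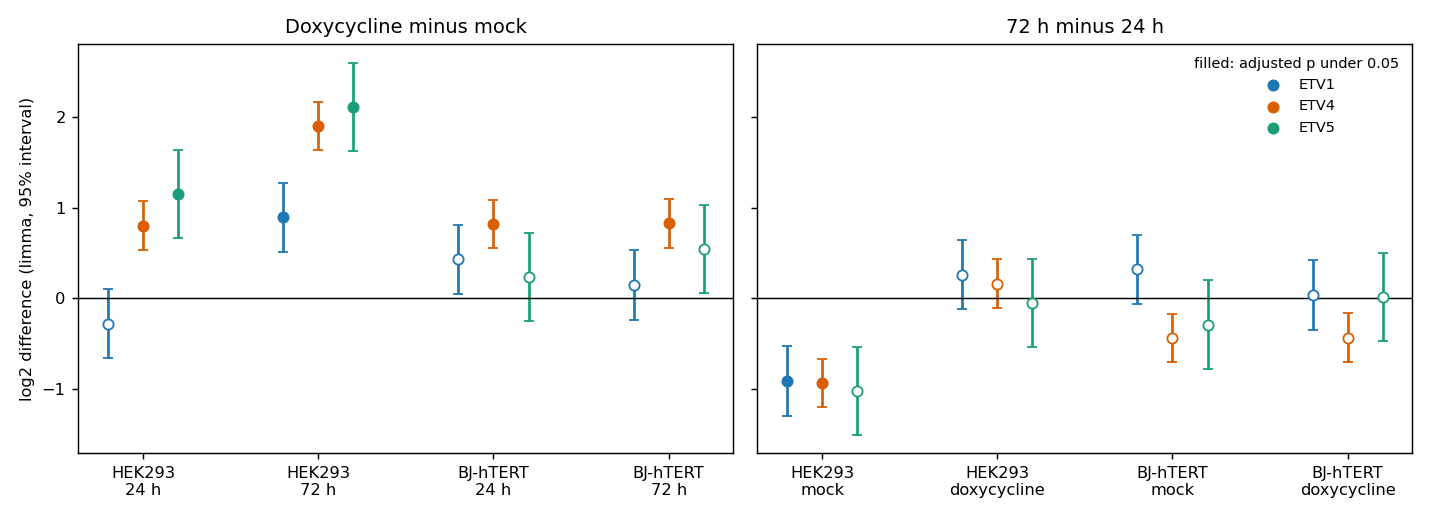
Log2 differences of ETV1, ETV4 and ETV5 (vertical axis, limma estimate with its 95% interval) for doxycycline minus mock (left) and for 72 h minus 24 h (right) in each line. Filled points have an adjusted p under 0.05. In HEK293 all 3 genes lie near -1 over time in mock cells and near 0 over time in doxycycline cells.

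Over time ETV4 and ETV1 fell in mock HEK293 and no member passed in doxycycline HEK293. From 24 to 72 h in mock HEK293, ETV4 fell by 0.93 ± 0.13 log2 (limma adjusted p = 0.0020, n = 3) and ETV1 fell by 0.91 ± 0.18 (limma adjusted p = 0.035). ETV5 differed by -1.02 ± 0.23, which did not pass (limma adjusted p = 0.058), although no 72 h array overlapped a 24 h array for any of the 3. In this comparison 0.369% of all genes were called and 0.0981% fell, and the groups did not overlap for 17% of genes. In doxycycline HEK293 the same differences were 0.16 ± 0.13 for ETV4 (95% interval -0.10 to 0.43), -0.05 ± 0.23 for ETV5 (-0.54 to 0.43) and 0.26 ± 0.18 for ETV1 (-0.12 to 0.64). None of these passed, with limma adjusted p from 0.60 to 0.95, where 0.306% of all genes were called. The ETV1 fall in mock cells was not called without mock replicate 1 or 2 of 24 h (-0.89 and -0.78) or replicate 1 or 3 of 72 h (-0.91 and -0.83), with adjusted p from 0.068 to 0.14. The 72 h doxycycline effect and the mock change share the 72 h mock arrays, so they are not separate observations.

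The doxycycline effect in HEK293 was larger at 72 h than at 24 h for ETV4, by 1.10 ± 0.18 log2 (limma adjusted p = 0.036), 1 of 3 genes called in that comparison (0.0173% of all, 0.0115% with a larger and 0.00577% with a smaller effect at 72 h). The call was lost on leaving out any of 11 of the 12 HEK293 arrays, while the value stayed between 0.98 and 1.19 and adjusted p reached 0.19. Only without doxycycline replicate 2 of 24 h was it kept. The same difference of effects was 1.17 ± 0.26 for ETV1 (95% interval 0.63 to 1.71, limma adjusted p = 0.29) and 0.96 ± 0.33 for ETV5 (0.28 to 1.65, limma adjusted p = 0.58). ETV1 ranked 12 by p-value in this comparison, in which 1138 genes had an unadjusted p under 0.05.

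In BJ-hTERT no member passed the test over time. ETV4 was lower at 72 h in mock cells by 0.43 ± 0.13 log2 and in doxycycline cells by 0.43 ± 0.13, with no overlap of arrays in either, and neither difference passed (limma adjusted p = 0.092 and 0.12). The groups did not overlap for 19.4% of all genes in mock cells and 17.7% in doxycycline cells. The 4 time differences of ETV1 and ETV5 in BJ-hTERT lay between -0.29 and 0.32, and none passed (the 0.32, of ETV1 in mock cells, was -0.31 with the median of its probe sets), where 1.85% of genes were called in mock and 0.825% in doxycycline cells (0.34% falling). The doxycycline effect on ETV4 differed by 0.00 ± 0.18 log2 between times in BJ-hTERT, with a 95% interval of -0.37 to 0.38. For ETV1 the effect was -0.28 ± 0.26 at 72 h relative to 24 h and for ETV5 it was 0.31 ± 0.33, and neither passed, where 0.00577% of all genes were called.

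Between lines, the doxycycline effect on ETV4 differed by -0.02 ± 0.18 log2 at 24 h (HEK293 minus BJ-hTERT, 95% interval -0.40 to 0.36, limma adjusted p = 0.97). At 72 h it was larger in HEK293 by 1.07 ± 0.18 (limma adjusted p = 0.0014), and that of ETV5 was larger by 1.57 ± 0.33 (limma adjusted p = 0.0068). With the median of probe sets these were 0.78 (adjusted p = 0.29) and 1.97 (adjusted p = 0.11) and neither was called. A higher effect in HEK293 was called for 2.85% of all genes at 72 h and 3.17% at 24 h, where 4.74% were called in all. For ETV5 at 24 h the difference was 0.91 ± 0.33 (limma adjusted p = 0.13), and without HEK293 mock replicate 1 it was 1.16 and called, with limma adjusted p = 0.045. For ETV1 it was -0.71 ± 0.26 at 24 h and 0.75 ± 0.26 at 72 h (limma adjusted p = 0.14 and 0.10). Without BJ-hTERT mock replicate 3 the 24 h value was -0.91 and called, with limma adjusted p = 0.039.

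The lines also differed in mock cells, whose arrays the differences of effects share. ETV5 was lower in HEK293 than in BJ-hTERT by 2.05 ± 0.23 log2 at 24 h (limma adjusted p = 2.0e-07) and by 2.78 ± 0.23 at 72 h (limma adjusted p = 2.0e-09). ETV1 and ETV4 did not pass at 24 h (-0.04 ± 0.18 and -0.07 ± 0.13) and were lower in HEK293 at 72 h, by 1.27 ± 0.18 and 0.57 ± 0.13 (limma adjusted p = 5.2e-06 and 0.00074). Between mock cells of the lines 50.7% of all genes were called at 24 h (28.9% higher and 21.8% lower in HEK293) and 51.3% at 72 h (28.8% and 22.6%).

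Ordered by mean level, ETV4 ran from doxycycline HEK293 at 72 h (5.99) through doxycycline BJ-hTERT at 24 h (5.92) and doxycycline HEK293 at 24 h (5.83) to doxycycline BJ-hTERT at 72 h (5.49). Mock BJ-hTERT (5.10) and mock HEK293 (5.02) at 24 h, mock BJ-hTERT at 72 h (4.66) and mock HEK293 at 72 h (4.09) followed. All 4 doxycycline groups stood above all 4 mock groups. The neighbours among the top 3, and the pair of 24 h mock groups, differed by less than the 95% half-width of 0.27. For ETV5 the 4 BJ-hTERT groups came first (6.12 to 5.57), then the doxycycline HEK293 groups (4.96 and 4.90), then mock HEK293 at 24 h (3.81) and at 72 h (2.79). Neighbours within BJ-hTERT and within doxycycline HEK293 differed by less than 0.49, the half-width for this gene. For ETV1, 7 groups formed a series from 5.68 to 4.90 in which each neighbour differed by less than 0.38, and mock HEK293 at 72 h stood alone at 4.27.

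Single probe sets show how far the gene means rest on a few positions. In HEK293 at 72 h, 12 of 14 ETV4 probe sets and 11 of 12 ETV5 probe sets were higher with doxycycline, with median differences of 1.62 and 2.07 log2. Of the 44 member probe sets that passed the filter, tested among 268605 probe sets, 5 of ETV4 rose by 2.48 to 4.50 and 2 of ETV5 rose by 2.83 and 4.02 in that comparison, where 0.0585% of all probe sets rose. The largest of each gene, 4.50 and 4.02, start from mock means of 1.99 and 2.88, below the probe set filter value of 3.03, so their size is uncertain. The ETV1 probe sets were higher in 17 of 20 cases with a median of 0.91, and none passed. At 24 h in HEK293, 11 of 14 of ETV4, 9 of 12 of ETV5 and 9 of 20 of ETV1 were higher, and none passed, where 0.0417% rose. In BJ-hTERT all 14 ETV4 probe sets were higher at 24 h, by 0.10 to 2.32, with none passing where 0.329% rose. At 72 h 12 of 14 were higher, and 1, number 9 in order, rose by 2.21 ± 0.48 (limma adjusted p = 0.041), where 0.25% of all probe sets rose. Over time in mock HEK293, 12 of 14 of ETV4, 10 of 12 of ETV5 and 18 of 20 of ETV1 were lower at 72 h, with median differences of -1.01, -0.90 and -0.85. None of these passed, where 0.00633% of all probe sets fell. Probe sets of a gene share arrays and transcripts and are not replicates.

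**Figure D3:**
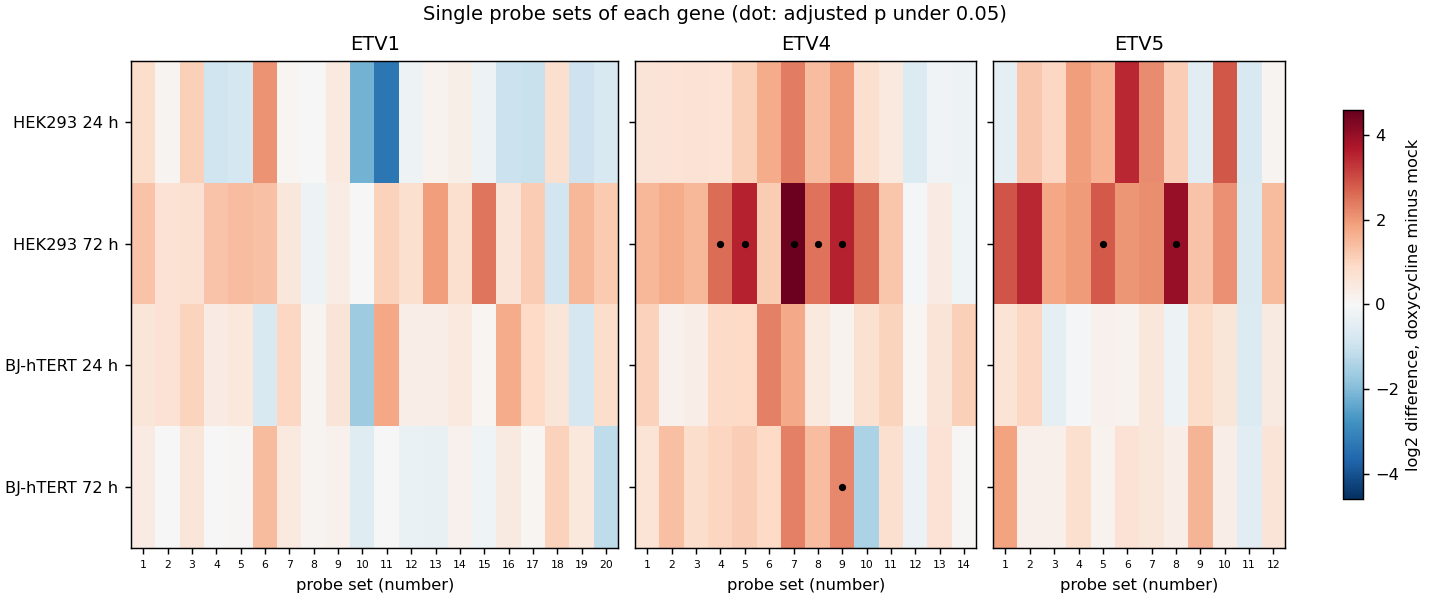
Log2 difference, doxycycline minus mock (colour, red higher), for each probe set of ETV1, ETV4 and ETV5 (columns, numbered in order of probe set ID) in the 4 comparisons (rows). Dots mark an adjusted p under 0.05. The 7 dots of HEK293 at 72 h fall on 5 ETV4 and 2 ETV5 probe sets, and the ETV1 panel has none.

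Among the receptors that feed ERK, of 16 tested 2 rose in HEK293 at 24 h and 4 at 72 h, with list medians of 0.33 and 0.31 log2 against 0.013 and -0.0039 over all genes. Of all genes 0.456% and 0.952% rose. NTRK3, the receptor for neurotrophin-3, rose by 1.67 ± 0.16 at 24 h and 1.93 ± 0.16 at 72 h, and IGF1R, the receptor for insulin-like growth factors, by 0.74 ± 0.10 and 0.97 ± 0.10. The other 2 called at 72 h were EGFR (0.66) and NTRK2 (0.91), named after their values were seen. In BJ-hTERT 0 rose and 1 fell at 24 h and 1 rose and 1 fell at 72 h. They were MET (-0.42) at 24 h and ERBB3 (0.73) and PDGFRB (-0.64) at 72 h, again named after their values were seen. These counts are near the shares of all genes, 4.47% rising and 4.39% falling at 24 h and 4.03% and 4.59% at 72 h. Of 10 tested genes of the RAS-ERK cascade itself 0 were called in HEK293 at either time and in BJ-hTERT at 72 h, and 1, the scaffold KSR1 (0.69, named after its value was seen), rose in BJ-hTERT at 24 h. Here too the counts are near the shares of all genes called, 0.473% and 1.21% in HEK293 and 8.85% and 8.62% in BJ-hTERT.

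Of 19 tested feedback and output genes of ERK, 1 rose in HEK293 at 24 h and 5 rose at 72 h, with 0 falls and medians of 0.21 and 0.41 log2. Of all genes 0.456% and 0.952% rose, and 0.0173% and 0.26% fell. DUSP4, a phosphatase that inactivates ERK, rose by 1.14 ± 0.20 at 24 h and 1.14 ± 0.20 at 72 h. At 72 h SPRY4, a Sprouty inhibitor of receptor signalling, rose by 1.81 ± 0.18, the AP-1 gene FOSL1 by 1.22 ± 0.17 and the cyclin gene CCND1 by 1.15 ± 0.14. EPHA2 (0.68) also rose, named after its value was seen. Over time in mock HEK293, 2 of these 19 genes fell, SPRY4 (-1.29 ± 0.18, limma adjusted p = 0.0020) and FOSL1 (-0.80 ± 0.17, limma adjusted p = 0.043), both named after their values were seen. In that comparison 0.0981% of all genes fell. SPRY4 was also the 1 gene of the list whose effect differed between 72 and 24 h in HEK293 (1.62 ± 0.25, limma adjusted p = 0.022). In that comparison 0.0173% of all genes were called. The 72 h rises of SPRY4 and FOSL1, their falls in mock cells and this SPRY4 difference share the 72 h mock arrays. They are not separate observations. The DUSP4 call at 24 h was lost with the arrays of the groups compared only (limma adjusted p = 0.22).

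In BJ-hTERT the same list went both ways, 3 rising and 2 falling at 24 h and 5 rising and 2 falling at 72 h, with medians of 0.21 and 0.14 against 0.024 and -0.011 over all genes. Of all genes 4.47% rose and 4.39% fell at 24 h, and 4.03% rose and 4.59% fell at 72 h. At 24 h the ephrin receptor gene EPHA4 rose by 0.91 ± 0.14, and FOSL1 fell by 1.13 ± 0.17 at 24 h and by 1.20 ± 0.17 at 72 h. SPRY1, another Sprouty gene, rose by 0.78 ± 0.14 at 72 h. The effect on FOSL1 thus had opposite directions in the lines, and the difference was 2.42 ± 0.24 at 72 h (limma adjusted p = 8.3e-06). Dividing cell genes moved with doxycycline in BJ-hTERT: all 13 on that list fell at both times, with medians of -1.18 and -0.99, among them PLK1 (-1.17 ± 0.09 and -1.05 ± 0.09) and CCNA2 (-1.24 ± 0.10 and -1.05 ± 0.10). Their mean level was 8.64 to 9.11 on mock arrays and 7.64 to 7.87 on doxycycline arrays of BJ-hTERT, against 9.13 to 9.32 on all HEK293 arrays. Their part in the ETV4 rise of BJ-hTERT was not tested.

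**Figure D4:**
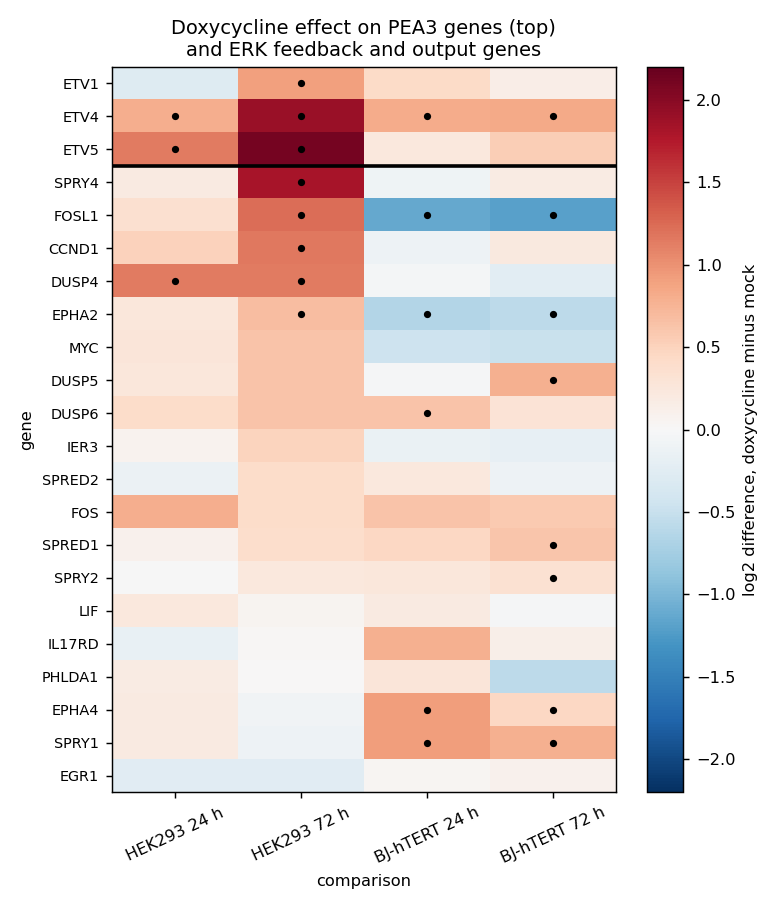
Log2 difference, doxycycline minus mock (colour), for the 3 PEA3 genes (above the line) and 19 ERK feedback and output genes (rows, ordered by HEK293 at 72 h) in the 4 comparisons (columns). Dots mark an adjusted p under 0.05. SPRY4, FOSL1, CCND1, DUSP4 and EPHA2 are called in HEK293 at 72 h, and FOSL1 and EPHA2 are called in the opposite direction in BJ-hTERT.

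Of the 9 genes that repress PEA3 transcription or act in the degradation of the proteins, 0 were called in HEK293 at either time. As 0.473% and 1.21% of all genes were called there, a count of 0 says little. In BJ-hTERT 2 rose at each time, TRIB1, a pseudokinase that binds COP1 (0.97 ± 0.15 and 0.84 ± 0.15), and ATXN1, a partner of CIC (0.64 ± 0.16 and 0.86 ± 0.16). Of all genes 4.47% and 4.03% rose there. Of 21 other ETS genes that passed the filter, out of 25, 0 were called in HEK293 at either time or in BJ-hTERT at 72 h. In BJ-hTERT 8.85% of all genes were called at 24 h and 8.62% at 72 h. At 24 h in BJ-hTERT ELF1 rose by 0.93 ± 0.13, GABPA rose (0.38) and the repressor gene ERF fell (-0.66), the last 2 named after their values were seen. The list medians lay between 0.014 and 0.078.

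Genes reported elsewhere as PEA3 targets, among them matrix metalloproteinases and the prostaglandin synthase PTGS2, came to 16 that were tested. In HEK293 0 were called at 24 or 72 h, where 0.473% and 1.21% of all genes were called, and the list medians were -0.014 and 0.10 log2. A count of 0 among 16 is near those shares. Low signal is a further limit, since the list mean was 3.98 to 4.19 over HEK293 groups and 5.86 to 5.93 over BJ-hTERT groups. In BJ-hTERT 1 rose and 2 fell at 24 h, and 1 rose and 4 fell at 72 h, where 8.85% and 8.62% of all genes were called. The calls were TWIST1 (1.53), PTGS2 (-0.68) and BAX (-0.55) at 24 h, and ICAM1 (0.64), PTGS2 (-0.74), PLAU (-0.87), MMP1 (-0.58) and BAX (-0.57) at 72 h, all named after their values were seen. Of 9 genes around the receptor RET in the ureteric bud, WNT11, a ligand needed for branching in the mouse, rose in HEK293 by 1.03 ± 0.19 at 24 h and 1.52 ± 0.19 at 72 h. The transcription factor MYB rose by 0.82 ± 0.16 at 72 h, and none of the 9 fell in HEK293. Of all genes 0.456% and 0.952% rose there at 24 and 72 h, and 0.0173% and 0.26% fell, so the absence of falls says little. In BJ-hTERT SPRY1 rose (0.92) and MET fell (-0.42) at 24 h, both named after their values were seen, and SPRY1 rose (0.78) at 72 h. Of all genes 4.47% rose and 4.39% fell there at 24 h, and 4.03% rose and 4.59% fell at 72 h. With 9 genes, such counts are near those shares. The MYB call was lost without mock replicate 3 (0.67, adjusted p = 0.076) or doxycycline replicate 1 (0.68, adjusted p = 0.076) of 72 h. The WNT11 call at 24 h was lost without mock replicate 1 (0.85, adjusted p = 0.083), doxycycline replicate 1 (0.87, adjusted p = 0.0943) or doxycycline replicate 2 (0.99, adjusted p = 0.063).

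Across the 24 arrays, after each line's mean was subtracted, ETV4 and ETV5 correlated at r = 0.86, ETV1 and ETV4 at 0.59 and ETV1 and ETV5 at 0.46. Within HEK293 (12 arrays) these were 0.93, 0.73 and 0.57, and within BJ-hTERT 0.67, 0.24 and 0.01. Arrays of a group share their treatment and time, so these are descriptions of 24 points in 8 groups. The 5 genes most like ETV4 by this measure were ZSWIM6 (r = 0.90), ETV5, NUTM2B (0.86), NUTM2G (0.84) and the homeobox gene HOXD10 (0.84). NUTM2B and NUTM2G belong to the gene family of the fusion partner. Those most like ETV5 were KIAA0226 (now RUBCN, 0.90), IGF1R (0.88), ETV4, CCND1 (0.84) and the imprinted gene PHLDA2 (0.82). Those most like ETV1 correlated less closely: COX10 (0.72), YWHAG, a 14-3-3 gene of the family of the fusion partner (0.71), EPRS (now EPRS1, 0.69), the histone demethylase KDM5B (0.69) and NF1, which encodes the RAS inhibitor neurofibromin (0.68). Without subtracting the line means, 2, 2 and 1 of the 5 genes were kept for ETV4, ETV5 and ETV1.

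**Figure D5:**
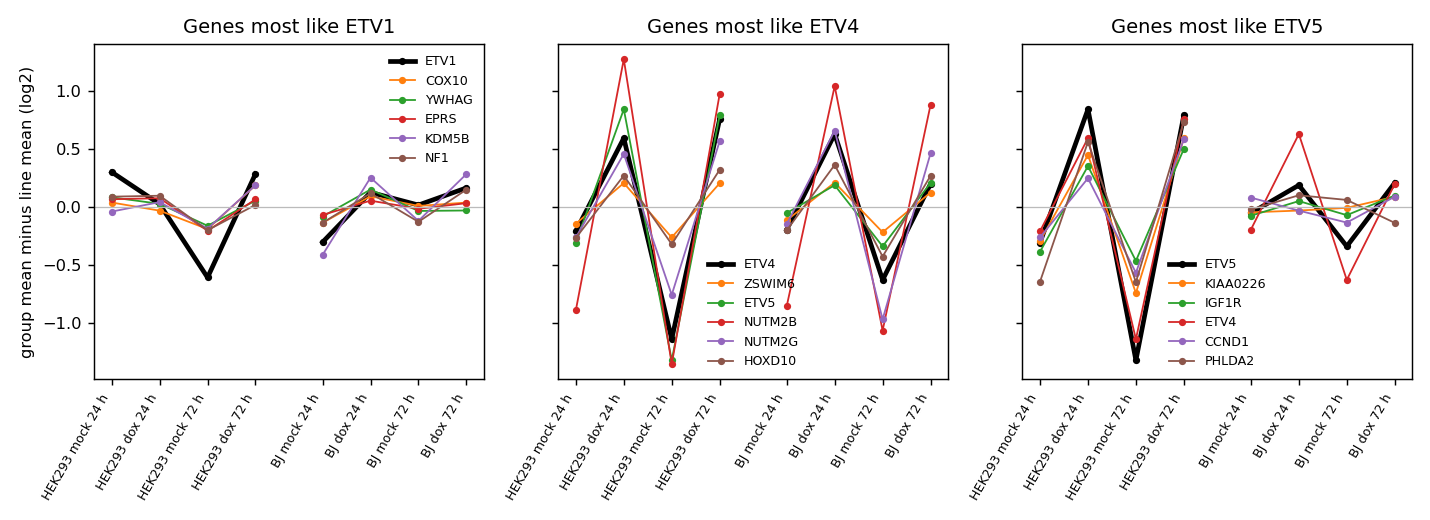
Group mean minus the mean of the line (vertical axis, log2) for ETV1, ETV4 and ETV5 (black) and the 5 genes most like each (colours), over the 8 groups (horizontal axis, BJ for BJ-hTERT). For ETV4 and ETV5 each curve has its lowest HEK293 value in mock cells at 72 h. PHLDA2, HOXD10 and IGF1R are nearly as low in mock HEK293 at 24 h. Over the 8 groups the genes most like ETV1 vary over a smaller range than ETV1 does, but within BJ-hTERT KDM5B varies more.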

How the data were processed

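Affymetrix Human Gene 2.1 ST arrays measured the RNA of 24 cell line samples. As deposited, each value is the log2 intensity of a probe set. Per the submitters' processing notes GCOS, RMA and Affymetrix Expression Console were used, and the series text names oligo and limma, all without versions. No source used here gives the set of arrays normalised jointly, the library version or the build, and no probe set position is printed.

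A gene's value is the mean of its single-symbol probe sets. Testing was limited to the 17329 of 25029 genes with a group mean of at least log2 2.83, percentile 40 of the group means. Groups and replicates came from the sample titles, in 3 of which HEK293 is spelled HEK239. One limma fit (limma 3.58.1, R 4.3.3) with a mean for each of 8 groups, moderated by eBayes, gave every difference, with 16 residual degrees of freedom, and single probe sets were fitted in the same way. Benjamini-Hochberg adjustment ran over every gene, or every probe set, that was tested. The fit was also run on simulated data with independent noise on each array, which cannot show whether replicates were separate cultures. Array number limits the precision.

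The members and lists were chosen with earlier results of these data known. Besides the members, the rule named up to 4 called genes of each list with the smallest p, at most 8 in a doxycycline comparison, and the 5 genes with the highest Pearson correlation to each member over line-centred values, passing over small RNAs and uncharacterised genes. Other genes are marked as named after their values were seen. Promoter sequences are RefSeq's. Alternatives covered the probe set summary, filter, normalisation, arrays fitted, variance model, array weights, replicate block and leaving out each array.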

Additional observations from a re-analysis of the deposited data

Results flagged for a closer look

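In 3 tests of a difference between times or lines a member passed the threshold. The doxycycline effect on ETV4 in HEK293 was larger at 72 h than at 24 h by 1.10 log2 (limma adjusted p = 0.036). At 72 h the effect was larger in HEK293 than in BJ-hTERT by 1.07 for ETV4 (limma adjusted p = 0.0014) and by 1.57 for ETV5 (limma adjusted p = 0.0068). With the median of probe sets none of the 3 was called (0.85, 0.78 and 1.97).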

How the results depend on the processing

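The rises of ETV4 in HEK293 at 72 h and in BJ-hTERT at both times, and of ETV5 in HEK293 at 72 h, kept their direction and call under all 12 alternatives and with each array left out. With probe sets summarised by their median, calls were lost for ETV4 (0.91) and ETV5 (1.69) in HEK293 at 24 h, ETV1 in HEK293 at 72 h (0.93), the mock HEK293 change of ETV1 (-0.99) and ETV4 (-0.92), the ETV4 effect at 72 against 24 h in HEK293 (0.85), the 72 h line difference of effects of ETV4 (0.78) and ETV5 (1.97) and the 72 h mock line difference of ETV4 (-0.52). That of ETV1 at 24 h was gained (-0.76). The sign turned, with no call in either setting, for ETV1 in BJ-hTERT at 72 h (-0.081), ETV4 over time in doxycycline HEK293 (-0.071) and ETV1 over time in mock (-0.31) and doxycycline (-0.47) BJ-hTERT. The counts of genes called for doxycycline were then 35, 88, 903 and 826, against 82, 210, 1534 and 1494. With brighter probe sets only, the mock HEK293 change of ETV5 was called (-1.03), and ETV5 over time in doxycycline HEK293 (0.017) and the 24 h mock line difference of ETV1 (0.0033) turned. Several settings left the value as it was and moved the adjusted p. With no filter the calls of the ETV1 change in mock HEK293 (-0.91) and of the ETV4 effect difference between times (1.10) were lost. The mock change of ETV5 (-1.02) was called with the filter at percentile 60 and with limma's trend, and the trend lost the ETV4 difference (1.10). With the arrays of 1 line, calls were lost for ETV5 at 24 h (1.15), the mock changes of ETV1 (-0.91) and ETV4 (-0.93) and the ETV4 difference (1.10). With only the groups compared, these were lost too, together with ETV4 at 24 h (0.80) and ETV1 at 72 h (0.89), and the counts were 22, 79, 697 and 551. Centring on array medians lost the ETV4 difference between times (1.04). The 24 h line difference of the ETV4 effect turned to 0.00039 with centring and 0.012 with quantile normalisation. Array weights turned the ETV4 difference between times in BJ-hTERT (-0.0075) and the 24 h mock line difference of ETV1 (0.034). The cause of these changes was not tested.

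Deviations of same-numbered arrays from their group means were little correlated (r -0.052 to 0.086). Whether the numbers pair the samples stays unknown, since values this small do not exclude shared cultures or batches. The fit with a replicate block called the mock change of ETV5 (-1.02) and lost the ETV4 difference between times (1.10).

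With each array left out, the ranges were 0.94 to 1.40 for ETV5 and 0.71 to 0.92 for ETV4 in HEK293 at 24 h, 0.78 to 1.05 for ETV1 at 72 h, -1.06 to -0.78 for ETV1 in mock HEK293 over time and 0.98 to 1.19 for the ETV4 effect between times. They were -0.43 to -0.14 for ETV1 in HEK293 at 24 h, 0.050 to 0.35 for ETV5 and 0.23 to 0.63 for ETV1 in BJ-hTERT at 24 h, and for the 24 h line difference of effects -0.91 to -0.51 for ETV1, -0.11 to 0.092 for ETV4 and 0.70 to 1.16 for ETV5. Values near 0 changed sign for the 24 h mock line differences of ETV1 (-0.23 to 0.16) and ETV4 (-0.19 to 0.017), ETV5 in doxycycline HEK293 over time (-0.11 to 0.059), the ETV4 effect between times in BJ-hTERT (-0.084 to 0.065), and ETV1 (-0.015 to 0.099) and ETV5 (-0.15 to 0.19) in doxycycline BJ-hTERT over time. Of the single probe sets called, the 5 of ETV4 and 2 of ETV5 in HEK293 at 72 h became 1 and 0 with the arrays of 1 line, and the 1 of ETV4 in BJ-hTERT at 72 h became 0 there and with no filter. Signal near the filter value limits ETV5 in mock HEK293 at 72 h.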
